A study of Mus musculus with 12 samples.

Results

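The receptors and Smads through which Tgf-beta, Activin and Nodal signal were followed in mouse embryonic stem cells (ESCs) that cannot make mature microRNAs. The 9 genes were Tgfbr1, Tgfbr2, Tgfbr3, Acvr1b, Acvr2a, Acvr2b, Smad2, Smad3 and Smad4, chosen by symbol from the 18412 genes of each table, and all 9 were present in all 4 tables. Polyadenylated RNA was sequenced with strand kept from 12 libraries in 4 groups of 3: a Dicer1-/- line, its wild-type comparison TFC, a Dgcr8-/- line, and its wild-type comparison V6.5. All groups were ESCs kept on gelatin in 15% serum with leukaemia inhibitory factor (LIF) at 1000 U/mL, and no group received another agent. The title of the study ties Argonaute loss to this signalling network, and the knockout lines show the same genes where microRNA production itself is lost. A knockout line was compared with another line, so loss of the gene and any further difference of the 2 lines cannot be told apart. The labels name no separate cultures within a group, so the p-values hold for the spread of these libraries only, and that spread may be technical.

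As background, a ligand of this family binds a type II receptor kinase, which phosphorylates a type I receptor kinase, which in turn phosphorylates the receptor-regulated Smads, Smad2 and Smad3. These join Smad4, the common partner, and enter the nucleus. Tgfbr2 and Tgfbr1 form the receptor pair for Tgf-beta. Acvr2a or Acvr2b with Acvr1b serve Activin, Nodal and Gdf3, and Tgfbr3, also called betaglycan, presents ligand without a kinase of its own. In ESCs, Nodal and Activin signalling through Smad2 is active in self-renewing cells and drives mesendoderm when it is raised. Dgcr8 works with Drosha to cut primary microRNA transcripts in the nucleus, and Dicer cuts the resulting hairpins, as well as other double-stranded RNA, in the cytoplasm.

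The most abundant microRNA families of ESCs carry one of a pair of related seeds, and both knockouts would lack these microRNAs. Matches to the seeds in the 3′ UTRs therefore show which of the 9 transcripts hold a possible site for them. A seed is bases 2 to 8 of the mature microRNA and is in capitals below. The sequences are from RefSeq (GRCm38.p6), which gave 7 of the 9 microRNAs looked up, mmu-miR-302a-3p and mmu-miR-122-5p being named only. The first 4 share the seed AAGUGCU, the next 2 share AAAGUGC, and let-7a, which is low in self-renewing ESCs and is shown for contrast, has GAGGUAG.
mmu-miR-291a-3p: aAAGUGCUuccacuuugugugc
mmu-miR-294-3p: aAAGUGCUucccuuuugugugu
mmu-miR-295-3p: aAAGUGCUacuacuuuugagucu
mmu-miR-302b-3p: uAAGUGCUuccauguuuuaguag
mmu-miR-17-5p: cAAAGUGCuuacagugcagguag
mmu-miR-20a-5p: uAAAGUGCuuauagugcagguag
mmu-let-7a-5p: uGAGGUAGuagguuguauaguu

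The matching letters in a transcript are AGCACTT for the miR-291a/294/295/302b seed, GCACTTT for the miR-17/20a seed and CTACCTC for let-7a, and the first 2 motifs overlap where AGCACTT is followed by T. They were searched on the transcribed strand of the longest annotated 3′ UTR of each gene (GENCODE, GRCm38). Of the 9 genes, 3 held AGCACTT: Tgfbr1 once, Tgfbr2 at 3 places and Smad2 at 3 places. GCACTTT was found once in Tgfbr2 and at 2 places in Smad2, both of them overlapping an AGCACTT match. CTACCTC was found once each in Tgfbr1, Tgfbr3, Acvr1b and Smad2. Acvr2a, Acvr2b, Smad3 and Smad4 held none of the 3 motifs in this window. Among 17871 annotated 3′ UTRs, 15.8% held AGCACTT, 12.7% GCACTTT and 10.4% CTACCTC. Among the 5196 of at least 2000 bases, the shares were 34.7%, 27.4% and 21.0%. The 3′ UTRs of Tgfbr1, Tgfbr2 and Smad2 are 4154, 6085 and 6233 bases long, the longest of the 9, and longer UTRs hold each motif more often. A match is a stretch of letters and not a measured site.

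The matches of the Tgf-beta receptors to the 2 ESC seeds are shown with their flanks because the levels of these receptors are set beside them below. Each line is the transcribed strand, with the match in capitals.
Tgfbr1 chr4:47411107-47411133, plus strand: ggcactaaatgaAGCACTTctgatttt
Tgfbr2 chr9:116089873-116089899, minus strand: cgggatagcgttAGCACTTgacaatca
Tgfbr2 chr9:116087764-116087790, minus strand: atcaaaacctaaAGCACTTattttcaa
Tgfbr2 chr9:116085348-116085374, minus strand: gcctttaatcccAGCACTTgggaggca
Tgfbr2 chr9:116090066-116090092, minus strand: ccaataacgtttGCACTTTattaatgc
The Tgfbr1 match begins 342 bases after the stop codon. The AGCACTT matches of Tgfbr2 begin 491, 2600 and 5016 bases after its stop codon, and its GCACTTT match 298 bases after it. The exon length that the tables give for Tgfbr2 is 4788 bases, shorter than the annotated 3′ UTR, so the later matches may lie outside the exons that were counted. The 3′ UTR let-7 matches of the other receptors are shown for comparison.
Tgfbr1 chr4:47410831-47410857, plus strand: aggctggttgttCTACCTCactgagag
Tgfbr3 chr5:107106953-107106979, minus strand: tttgtactgtaaCTACCTCatggtttg
Acvr1b chr15:101210924-101210950, plus strand: cgtcgtggaggcCTACCTCttgtttct

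The genes are scattered over the genome (GRCm38). Tgfbr1 lies at chr4:47353222-47414931, Tgfbr2 at chr9:116084293-116175360 and Tgfbr3 at chr5:107106570-107289629. Acvr1b lies at chr15:101174067-101213684, Acvr2a at chr2:48814109-48903269 and Acvr2b at chr9:119402118-119434995. Smad3 lies at chr9:63646767-63757994, and Smad2 and Smad4 lie on chromosome 18. Acvr2a overlaps Orc4 and Acvr2b overlaps Gm47320, in each case on the opposite strand. Also on the opposite strand, Tgfbr3 overlaps Gm8145 and Smad4 overlaps AC132418.2, each a processed pseudogene. On the same strand, Acvr1b overlaps Mir6962, a microRNA gene, and Tgfbr3 overlaps Gm43422, Gm43423 and Gm42900. No source used here says whether the authors' counting used strand, so reads of these overlaps are uncertain.

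Each table column is a mean of 3 libraries, from which the reads of each library were solved. The letter A marks, in every group, the library whose exonic values correlated least with the other 2, and those are B and C. Recovered exonic depth ran from 5869714 reads in V6.5 A to 30571464 in TFC A, and intronic depth from 559057 to 5597604. By this choice the mean Pearson r of A was the lowest in every group. The margin was small in the Dicer knockout (0.854 against 0.856 and 0.862) and between A and C of TFC (0.767 against 0.773). Library A stood apart in every group by the exonic chi-square per gene, a measure of disagreement between 2 libraries. It was 136.3 to 434.3 for A against B or C and 21.2 to 58.3 for B against C. TFC B had 16.7% of the tested genes at 0 in exons against 2.93% in TFC A and 4.81% in TFC C. The exonic reads of the targeted genes were lower in their knockouts. Dicer1 had 1334, 1763 and 1675 normalised exonic reads (libraries A, B and C) in the Dicer knockout against 2944, 3278 and 3496 in TFC (log2 fold change -1.03, SE 0.23, limma adjusted p = 0.0762, range over the alternatives 0.00204 to 0.374). Dgcr8 had 342.1, 955.5 and 1114 in its knockout against 1930, 2707 and 2947 in V6.5 (-1.80, SE 0.47, limma adjusted p = 0.11, range 0.00125 to 0.397). Neither passed the threshold, although the groups did not overlap; the deleted exons are not named in the labels, so reads outside them still count. Intronic reads of Dgcr8 were higher in its knockout without overlap, 389.3, 408.3 and 437.7 against 242.8, 215.1 and 310.6 (0.70, SE 0.30, limma adjusted p = 0.295), and those of Dicer1 were lower, averaging 317.7 against 481.7 (-0.58, SE 0.31, limma adjusted p = 0.535). The pluripotency markers, Pou5f1 and 7 others, were above 0 in all 4 groups. Over the 5 solved in the Dicer table, their summed level was 51950 to 75768 in its 6 libraries. Over the 6 solved in the Dgcr8 table, it was 53916 to 78709 in the knockout, while V6.5 A, B and C had 64337, 21377 and 27372. The sums cover unlike markers and separately scaled tables, so they cannot be compared between the tables.

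Compared per length of exon, Smad4 was the most abundant of the 9 transcripts in both wild-type lines, and Tgfbr2 and Tgfbr3 were the least abundant in all 4 groups. In TFC, Smad4 stood at 577 ± 78.7 normalised reads per kilobase (SD, n = 3), followed by Tgfbr1 at 321 ± 80.6, Smad2 at 310 ± 87.0 and Acvr2b at 296 ± 124. Acvr1b, Acvr2a and Smad3 came next at 181 ± 136, 151 ± 23.4 and 148 ± 55.5, then Tgfbr2 at 14.9 ± 18.8 and Tgfbr3 at 11.0 ± 11.7. Smad4 did not overlap with Tgfbr1, the next in order, and Smad3 did not overlap with Tgfbr2. All other neighbours overlapped. In V6.5 the order was nearly the same: Smad4 at 487 ± 13.9, Tgfbr1 at 273 ± 120, Smad2 at 234 ± 53.4, Acvr2b at 222 ± 22.5, Smad3 at 155 ± 52.9, Acvr1b at 141 ± 74.6, Acvr2a at 127 ± 64.3, Tgfbr2 at 30.1 ± 19.3 and Tgfbr3 at 25.3 ± 16.1. Here too Smad4 was clear of Tgfbr1, and the gap above Tgfbr2 was the only other one without overlap.

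In the Dicer knockout Tgfbr1 headed the order at 548 ± 117 normalised reads per kilobase, followed by Smad4 at 458 ± 69.3 and Smad2 at 406 ± 83.1, and these neighbours overlapped. Acvr2b, Smad3, Acvr1b and Acvr2a followed at 265, 211, 180 and 136, then Tgfbr2 at 41.4 ± 15.9 and Tgfbr3 at 6.66 ± 4.96, each clear of the gene above it. In the Dgcr8 knockout Smad4 was first at 387 ± 18.3 and overlapped with Tgfbr1 at 338 ± 155, with Smad2 at 316 ± 108. Acvr2b at 238, Acvr2a at 141, Smad3 and Acvr1b both at 133, Tgfbr2 at 21.8 and Tgfbr3 at 12.6 completed the order, with gaps between neighbours below Acvr2b and above Tgfbr2. Acvr2a in Dgcr8 knockout library A, at 31.0, was within the range of Tgfbr2, which reached 33.1. Among the 13221 genes compared per length in the Dicer table, Smad4 stood at percentile 77.8 in TFC, Tgfbr2 at 13.4 and Tgfbr3 at 10.2. Between the type II receptors of the 2 branches, the means of Acvr2b and Acvr2a were above that of Tgfbr2 in all 4 groups. Per length, Tgfbr2 was at 0.0206 to 0.188 of Acvr2b in TFC libraries A and C, and at 0.0334 to 0.218 in the 3 libraries of V6.5.

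**Figure D1:**
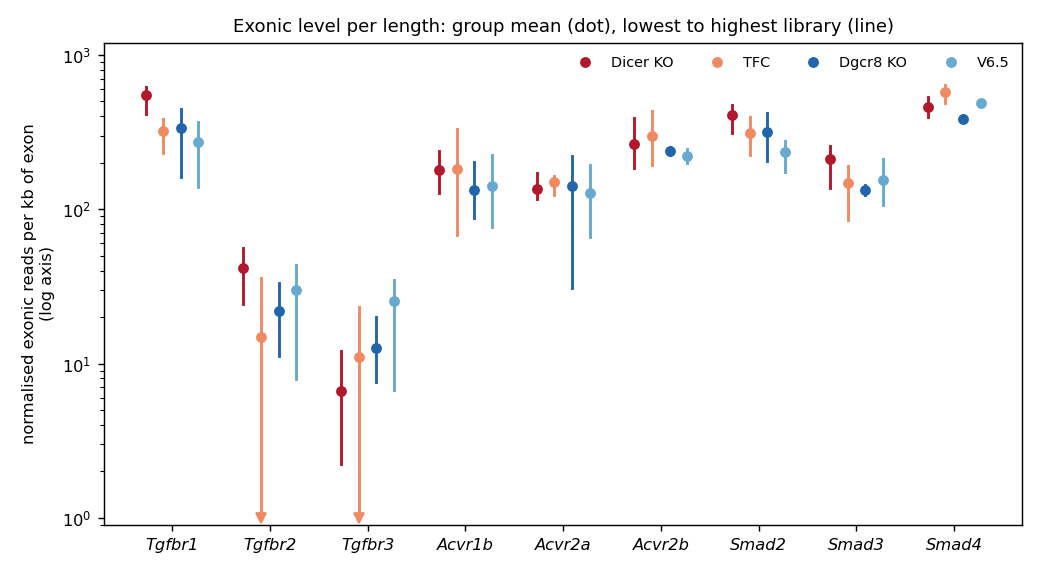
Exonic level of the 9 genes in normalised reads per kilobase of exon (log axis), with a dot for the mean of each group and a line from its lowest to its highest library; an arrowhead marks a library at 0. Tgfbr2 and Tgfbr3 have the 2 lowest means in all 4 groups, and the tables of the Dicer and Dgcr8 pairs were scaled separately.

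None of the 9 genes passed the test in exons of either knockout. By limma, 0 of 9 were called at an adjusted p under 0.05 in Dicer exons, where 1.25% of all 13152 genes tested were called, and 0 of 9 in Dgcr8 exons, where 1.34% of 12716 were. Before adjustment, 1 gene (Tgfbr1, Dicer) was under 0.05 in Dicer exons and 0 in Dgcr8 exons, where 14.5% and 16.3% of all genes were, and limma-voom also called 0 of 9 in each. In Dicer exons, 6 of the 9 fold changes were above 0 and 3 below, with a median of 0.41 on the log2 scale beside -0.01 for all genes tested. In Dgcr8 exons, 3 were above 0 and 6 below, with a median of -0.12 beside -0.08.

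Tgfbr1, the type I receptor for Tgf-beta, had the lowest p of the 9 in exons, and every library of its Dicer knockout was higher. Its normalised exonic reads were 2484, 3701 and 3714 in the Dicer knockout against 1387, 2316 and 2096 in TFC. The groups did not overlap, and A was the lowest of its group on both sides. The knockout mean was 1.71 times the TFC mean (3300 against 1933), with a log2 fold change of 0.78 (SE 0.29, 95% interval 0.13 to 1.43, limma adjusted p = 0.252). Of all genes tested, 11.7% were likewise higher in the knockout with no overlap. The difference was 0.84 between the A libraries and 0.75 between the B and C libraries on the log2 scale. With a term for library set (A against B and C) in the model, Tgfbr1 was the 1 gene of the 9 that was called (log2 fold change 0.78, limma adjusted p = 0.00691, range over the alternatives 0.00691 to 0.655), and that fit called 12.2% of all genes, 7.27% as higher. With B and C alone the limma adjusted p was 0.0813. Library A was picked from these same exonic values, so neither fit is independent of the data tested.

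Tgfbr1 had 966.7, 2470 and 2669 normalised exonic reads in the Dgcr8 knockout against 837.9, 1873 and 2227 in V6.5. Each knockout library lay above the V6.5 library of the same letter, but the groups overlapped widely because A was below the other 2 in both. The log2 fold change was 0.29 (SE 0.51, 95% interval -0.90 to 1.48, limma adjusted p = 0.863), and without V6.5 library A it was -0.14. Within the A libraries the difference was 0.21 and within B and C 0.33, but the letters do not pair the samples.

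Tgfbr2, the type II receptor for Tgf-beta and the transcript with the most ESC-seed matches beside Smad2, was low and uneven. It had 116.3, 211.3 and 266.9 normalised exonic reads in the Dicer knockout against 41.73, 0 and 172.6 in TFC, where B, the library with many genes at 0, held no read of it. The knockout mean was 2.77 times the TFC mean, and the groups overlapped. The log2 fold change of 3.27 (SE 1.77, 95% interval -0.73 to 7.27, limma adjusted p = 0.453) rests on that library: it was 1.13 without it and 2.12 with 10 added in place of 1. Within the A libraries it was 1.46, within the C libraries 0.63, and within B, with TFC at 0, 7.73.

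The Tgfbr2 values of the Dgcr8 knockout were 53.41, 101 and 158.3 against 38.09, 206.8 and 188.1 in V6.5. The groups overlapped, with V6.5 A below every other library. The log2 fold change was -0.27 (SE 0.81, limma adjusted p = 0.933), 0.48 within the A libraries and -0.64 within B and C.

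Tgfbr3, the co-receptor betaglycan, was the lowest of the 9. Its values were 72.84, 13.63 and 34.53 normalised exonic reads in the Dicer knockout against 58.84, 0 and 140.9 in TFC. The ratio of means was 0.606, while the log2 fold change was 0.73 (SE 1.96, limma adjusted p = 0.903). The sign differed because TFC B was at 0: without that library the log2 fold change was -1.45, and with 10 added in place of 1 it was -0.08. Tgfbr3 had 45.9, 121.2 and 62.36 in the Dgcr8 knockout against 40.63, 208.7 and 210.4 in V6.5. V6.5 B and C were the highest and V6.5 A the lowest of the 6. The ratio of means was 0.499 and the log2 fold change -0.78 (SE 0.81, 95% interval -2.66 to 1.09, limma adjusted p = 0.727), 0.17 within the A libraries and -1.26 within B and C.

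Markers of mesoderm, fibroblasts and primitive endoderm were lower in V6.5 A than in V6.5 B and C. So were Tgfbr1, Tgfbr2, Tgfbr3, Acvr2a, Smad2 and Smad3, of which Tgfbr2 and Tgfbr3 had only 15 and 16 exonic reads in V6.5 A. The summed level of 6 mesoderm and streak markers was 319.9 in V6.5 A, 3858 in B and 4605 in C, and 119.6 to 201.9 in the Dgcr8 knockout, where T and Mesp1 were at 0 (Mesp1 also in V6.5); 2 of the 4 tested were called lower. The summed level of 10 fibroblast markers was 17624 to 43990 in V6.5 and 11506 to 16376 in the knockout, where Lum was at 0, and 4 of the 9 tested were called lower. Trophectoderm markers summed to 10521 to 14170 in V6.5 and 1397 to 2659 in the knockout (Elf5 at 0), with 3 of 6 called lower. Primitive endoderm markers summed to 6104 to 16978 and 9776 to 10605, with 1 of 6, Dab2, called lower. Of all genes tested, 0.558% were called lower, and these calls come from a fit that called 0 genes when Dgcr8 knockout B or C or V6.5 B or C was left out. The median log2 fold changes of the tested markers were -4.45, -3.22, -2.95 and -2.07 in the order given, beside -0.08 for all genes. In the Dgcr8 knockout too, Tgfbr1, Tgfbr2, Tgfbr3, Acvr2a and Smad2 were lowest in library A, while Smad3 was highest there. In that knockout library the mesoderm and fibroblast sums were the highest of the group, 201.9 and 16376. The primitive endoderm sum was the lowest, 9776. The part of the markers in the values of the 9 genes was not tested. In bulk RNA, fewer cells of a type and less RNA per cell cannot be told apart. In the Dicer table the primitive endoderm markers summed to 14826 to 25529 in the knockout and 3006 to 6044 in TFC (1 of 6 called higher, as 1.03% of all genes were; Sox17 at 0 in both). The other sums overlapped there: fibroblast markers, with Fn1 left out as unsolved, 394.9 to 592.9 against 397.7 to 762.3 (Col1a2, Col3a1 and Lum at 0 in the knockout), trophectoderm 3684 to 5615 against 1946 to 5807, with Elf5 at 0 in TFC. Mesoderm markers summed to 138.6 to 324.0 against 321.0 to 483.3, with Mesp1 at 0 in both. The median log2 fold changes of the tested markers were 0.17 for primitive endoderm, -1.82 for fibroblasts, 1.48 for trophectoderm and -0.98 for mesoderm. The median over all genes tested was -0.01, so the primitive endoderm sum was higher without a like change in the median. The part of these markers in the Dicer differences of the 9 genes was not tested.

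In exons, the groups overlapped for all 3 Activin and Nodal receptors in both knockouts. Acvr1b, their type I receptor, had 785.3, 418 and 563 normalised exonic reads in the Dicer knockout against 1087, 222.6 and 467.4 in TFC, so the means were 588.8 and 592.4. Its log2 fold change was 0.24 (SE 0.57, 95% interval -1.06 to 1.53, limma adjusted p = 0.889). The Dgcr8 knockout gave 659.6, 289 and 361.4 against 731.3, 252.2 and 406.4 in V6.5 (log2 fold change -0.04, SE 0.51, 95% interval -1.22 to 1.14, limma adjusted p = 0.988). Acvr1b was highest in library A in all 4 groups, the reverse of Tgfbr1, which was lowest in A in all 4.

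Acvr2a, a type II receptor, had 677.3, 976.9 and 658.7 normalised exonic reads in the Dicer knockout against 701.9, 924.2 and 939.2 in TFC. This was a log2 fold change of -0.16 (SE 0.31, 95% interval -0.85 to 0.53, limma adjusted p = 0.851). In the Dgcr8 knockout it had 176.1, 985.1 and 1250 against 375.8, 677.7 and 1103 in V6.5, with A the lowest on both sides, and the log2 fold change was -0.12 (SE 0.76, limma adjusted p = 0.973). Within the A libraries of that pair the difference was -1.09 and within B and C 0.36, so the direction was not shared.

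Acvr2b, the other type II receptor of this branch, had 4153, 1986 and 2354 normalised exonic reads in the Dicer knockout against 4629, 2791 and 2058 in TFC, with A the highest of both groups. Its log2 fold change was -0.15 (SE 0.37, limma adjusted p = 0.89). In the Dgcr8 knockout it had 2706, 2522 and 2379 against 2603, 2123 and 2378 in V6.5, the most even values of any receptor. The log2 fold change was 0.10 (SE 0.23), and its 95% interval, -0.44 to 0.64, was the narrowest of the 6 receptor genes in either knockout (limma adjusted p = 0.906).

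**Figure D2:**
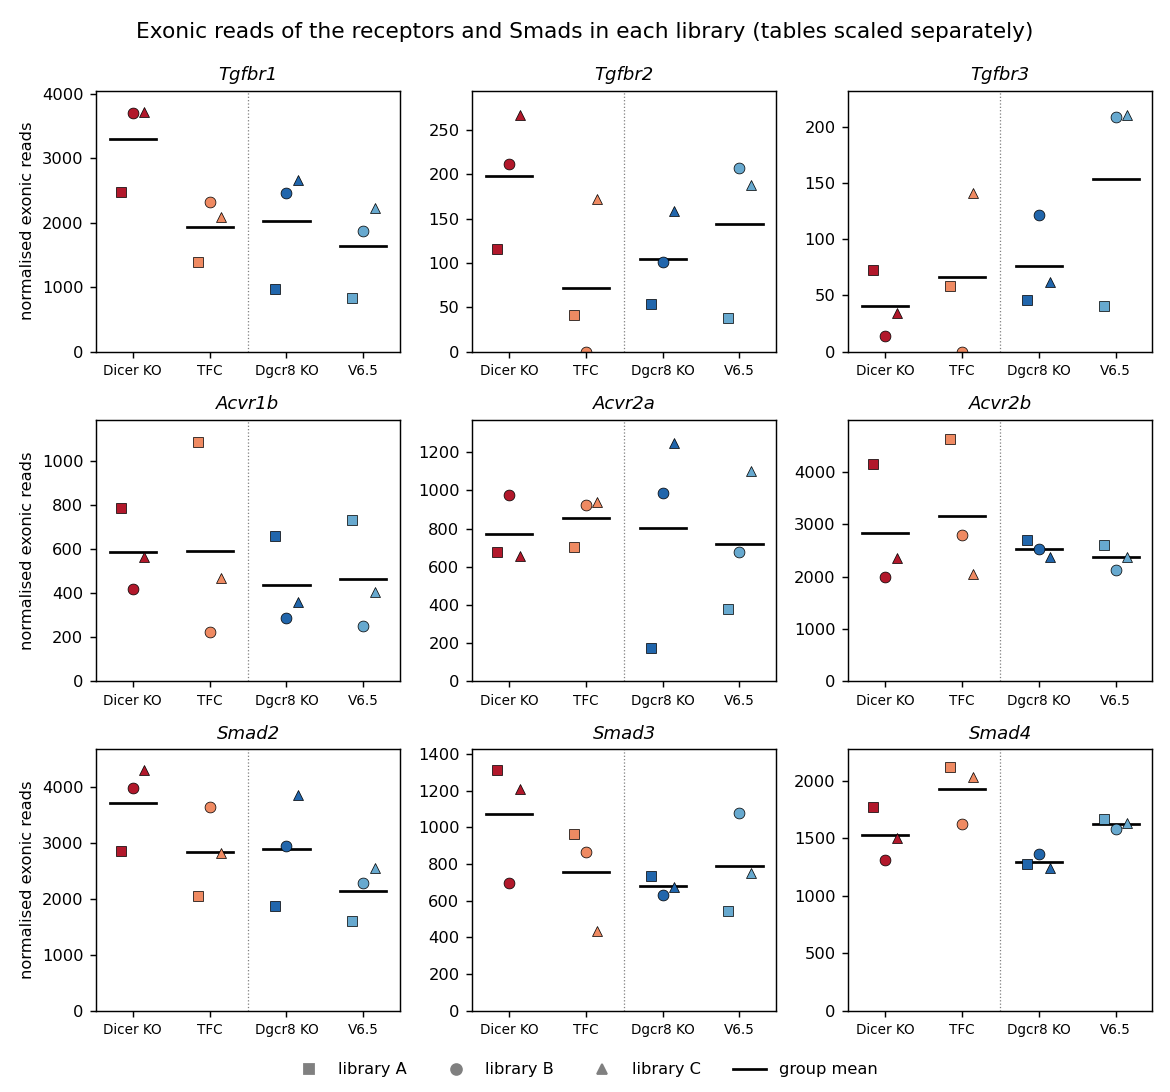
Normalised exonic reads of each of the 9 genes in every library (square A, circle B, triangle C), with a bar for the group mean; the dotted line parts the separately scaled Dicer and Dgcr8 tables. Tgfbr1 in the Dicer knockout and Smad4 in V6.5 are the 2 cases in which all libraries of a group lie above all libraries of the group it was compared with.

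Smad2, the receptor-regulated Smad with matches to both ESC seeds, was higher on average in both knockouts, and its groups overlapped in both. It had 2859, 3973 and 4310 normalised exonic reads in the Dicer knockout against 2041, 3632 and 2816 in TFC. The means were 3714 and 2830, a ratio of 1.31, with a log2 fold change of 0.41 (SE 0.29, 95% interval -0.24 to 1.06, limma adjusted p = 0.572, range over the alternatives 0.113 to 0.859). In the Dgcr8 knockout it had 1877, 2948 and 3851 against 1600, 2280 and 2545 in V6.5. Here the means were 2892 and 2142, a ratio of 1.35, with a log2 fold change of 0.40 (SE 0.34, 95% interval -0.39 to 1.19, limma adjusted p = 0.647, range 0.141 to 0.918). The knockout library was the higher of the 2 in each of the 6 pairs of libraries with the same letter, by 0.49 (A) and 0.37 (B and C) on the log2 scale for Dicer and 0.23 and 0.48 for Dgcr8. The letters come from the data and do not pair the samples.

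Smad3, the other receptor-regulated Smad, showed no common direction. It had 1312, 697.4 and 1206 normalised exonic reads in the Dicer knockout against 965.6, 865.4 and 434.4 in TFC (ratio of means 1.42, log2 fold change 0.53, SE 0.40, limma adjusted p = 0.605). Its Dgcr8 knockout values were 734.3, 630.8 and 673.1, against 540.8, 1076 and 752.3 in V6.5 (ratio 0.860, log2 fold change -0.16, SE 0.34, limma adjusted p = 0.886). The knockout values were close together, and the V6.5 values spread to both sides of them.

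Smad4, the common partner, was lower on average in both knockouts. It had 1773, 1312 and 1502 normalised exonic reads in the Dicer knockout against 2121, 1628 and 2035 in TFC, a ratio of means of 0.793. The groups overlapped, and the log2 fold change was -0.34 (SE 0.24, 95% interval -0.89 to 0.22, limma adjusted p = 0.591, range over the alternatives 0.237 to 0.831). In the Dgcr8 knockout it had 1276, 1360 and 1241 against 1668, 1577 and 1637 in V6.5, a ratio of 0.794. Every knockout library was below every V6.5 library, as for 11.9% of all genes tested. The log2 fold change was -0.33 (SE 0.23, 95% interval -0.88 to 0.21, limma adjusted p = 0.561, range 0.211 to 0.794), with -0.39 within the A libraries and -0.31 within B and C.

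The balance of Smad4 to Smad2 was compared within each library, per length of exon. The ratio was 1.70, 0.904 and 0.954 in the Dicer knockout against 2.84, 1.23 and 1.98 in TFC. The Dgcr8 knockout had ratios of 1.86, 1.26 and 0.882, and V6.5 of 2.85, 1.89 and 1.76. The ratio was lower by 0.75 and 0.73 on the log2 scale, and the groups overlapped in both. Its p was 0.2 in each by a two-sided exact permutation test of 3 against 3 libraries, whose smallest p is 0.1, and 0.667 adjusted over the 10 such tests made. The overlap came from the A libraries. Within each letter the knockout ratio was the lower in all 6 pairs, and B and C alone did not overlap in either knockout. The letters come from the data and do not pair the samples, and no test of 2 against 2 was made. These descriptions therefore add nothing to the exact test. For 4 other balances (Tgfbr1 to Acvr1b, Acvr2b to Acvr2a, Tgfbr2 to Acvr2b and Smad2 to Smad3), the same exact test gave p from 0.2 to 1.0 over both knockouts, and 0.667 to 1.0 adjusted. The Tgfbr1 to Acvr1b ratio split by library instead of by genotype: it was 0.623 to 1.72 in the 4 A libraries and 2.44 to 5.64 in the 8 others.

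**Figure D3:**
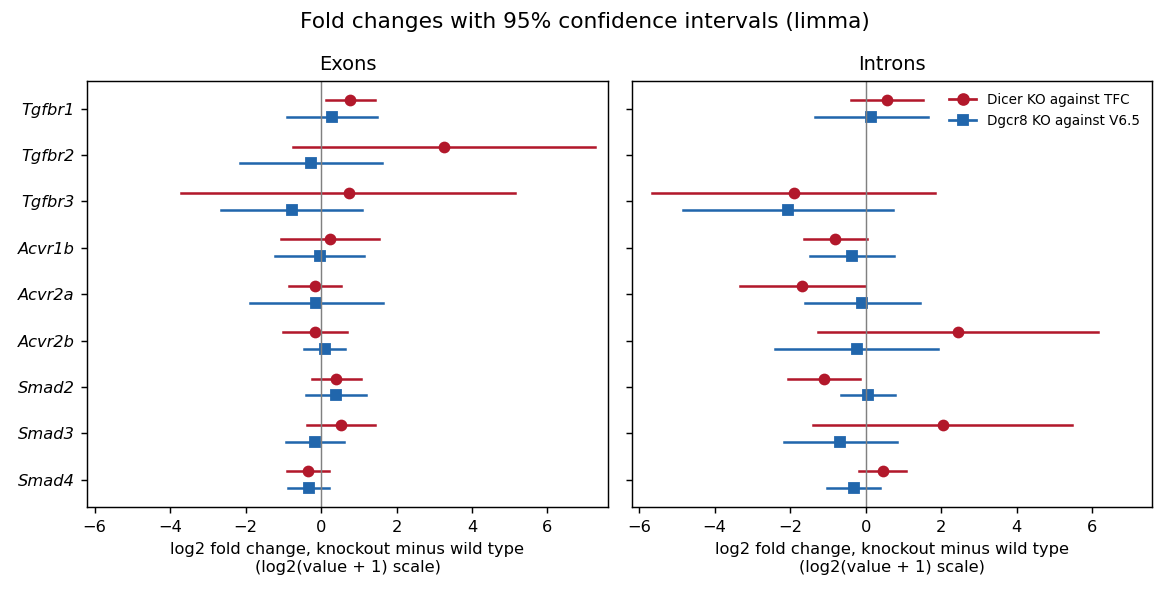
Log2 fold change of each gene (knockout minus wild type, log2(value + 1) scale) with its 95% confidence interval from limma, for exons (left) and introns (right); circles are the Dicer pair and squares the Dgcr8 pair, and Tgfbr2 was too low in introns to be tested. In exons the interval of Tgfbr1 in the Dicer pair lies above 0 before adjustment and all others include 0, and the intervals of Tgfbr2 and Tgfbr3 are the widest.

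Whether the 2 knockouts differed in their effect was tested directly over all 12 libraries. By limma, 21 of 12302 genes (0.171%) differed, and 0 of the 9 did. The estimate was largest for Tgfbr2, at -3.54 on the log2 scale, Dgcr8 minus Dicer (SE 2.11, limma adjusted p = 0.855), and it rests on TFC B at 0: it was -1.39 without that library, -2.39 with 10 added and -5.11 without TFC C. It was -0.49 for Tgfbr1 (SE 0.62, 95% interval -1.85 to 0.86, limma adjusted p = 0.999) and -0.70 for Smad3 (SE 0.53, limma adjusted p = 0.951). For Smad2 the difference was -0.01 (95% interval -1.0 to 0.98) and for Smad4 0.00 (-0.64 to 0.65), so effects on these 2 genes that differ by less than about these bounds cannot be told apart here.

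Intronic reads, which come mostly from unspliced transcripts, were fewer and gave 0 calls among the 8 genes tested in each knockout. The backgrounds were 0.353% of 11625 genes in the Dicer pair and 1.52% of 10748 in the Dgcr8 pair. Before adjustment, Smad2 and Acvr2a were under 0.05 in the Dicer pair and no gene was in the Dgcr8 pair, where 10.1% and 14.5% of all genes were, and limma-voom called 0 in each. The medians were -0.18 in Dicer introns, beside 0.05 for all genes tested, and -0.28 in Dgcr8 introns, beside -0.05. Tgfbr2 was below the level filter in both.

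In the Dicer pair, 3 genes did not overlap in introns, 2 of them lower in the knockout (7.99% of all genes tested) and 1 higher (9.27%). Acvr2a had 56.63, 53.17 and 31.05 normalised intronic reads in the knockout against 114.8, 212.4 and 132.8 in TFC, a ratio of means of 0.306. All 3 knockout libraries were below all TFC libraries, and the log2 fold change was -1.68 (SE 0.78, 95% interval -3.34 to -0.02, limma adjusted p = 0.488). Acvr1b had 239.7, 129.5 and 237.1 against 405.4, 367 and 262.7, a ratio of 0.586, also without overlap (log2 fold change -0.80, SE 0.40, limma adjusted p = 0.511). Smad4 had 481.4, 546.7 and 582.8 against 465.8, 341.4 and 380.1, with the knockout higher (log2 fold change 0.45, SE 0.29, limma adjusted p = 0.608), the opposite sign of its exons.

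Smad2 had 302.7, 138.7 and 183.5 normalised intronic reads in the Dicer knockout against 233.2, 780.7 and 429 in TFC. TFC B was the highest by far, the A libraries went the other way by 0.37, and the log2 fold change was -1.11 (SE 0.45, 95% interval -2.06 to -0.16, limma adjusted p = 0.424). Tgfbr1 had 204.5, 249.7 and 279.4 against 141.2, 264.7 and 117.4 (log2 fold change 0.56, SE 0.45, limma adjusted p = 0.675), the same sign as its exons but with overlap. The introns of Tgfbr3, Acvr2b and Smad3 had a library at 0 on 1 side, Dicer knockout C for the first and TFC B for the other 2. Their log2 fold changes were -1.90, 2.44 and 2.04 (limma adjusted p = 0.714, 0.633 and 0.672), and 0.01, 0.64 and -0.19 without the library at 0. Tgfbr2 had 22 intronic reads in library B of the knockout and 0 in all 5 others.

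In the Dgcr8 pair the intronic values of all 8 genes tested overlapped, where 19.7% of all genes tested did not. The log2 fold changes ran from -2.06 for Tgfbr3 (SE 1.30, limma adjusted p = 0.507) to 0.15 for Tgfbr1 (SE 0.70, limma adjusted p = 0.945). Tgfbr3 had 30.73, 11.47 and 0 normalised intronic reads against 23.69, 29.4 and 37.42, and its value rests on the library at 0: it was -0.62 without it and -0.95 with 10 added. Smad2 was the most even, with 159.6, 209.3 and 167.3 normalised intronic reads in the knockout against 174.7, 160.9 and 174.6 in V6.5, a log2 fold change of 0.06 (SE 0.34, 95% interval -0.66 to 0.78, limma adjusted p = 0.95). Smad4 had 152, 267.2 and 246.6 against 245.8, 280 and 284.4 (log2 fold change -0.32, SE 0.33, limma adjusted p = 0.718), the sign of its exons. Tgfbr2 had no intronic read in the knockout and 17.77, 26.3 and 14.97 normalised reads in V6.5, from 52 reads in all. It was below the level filter and has no test or fold, and its exonic means were 104.2 and 144.3.

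**Figure D4:**
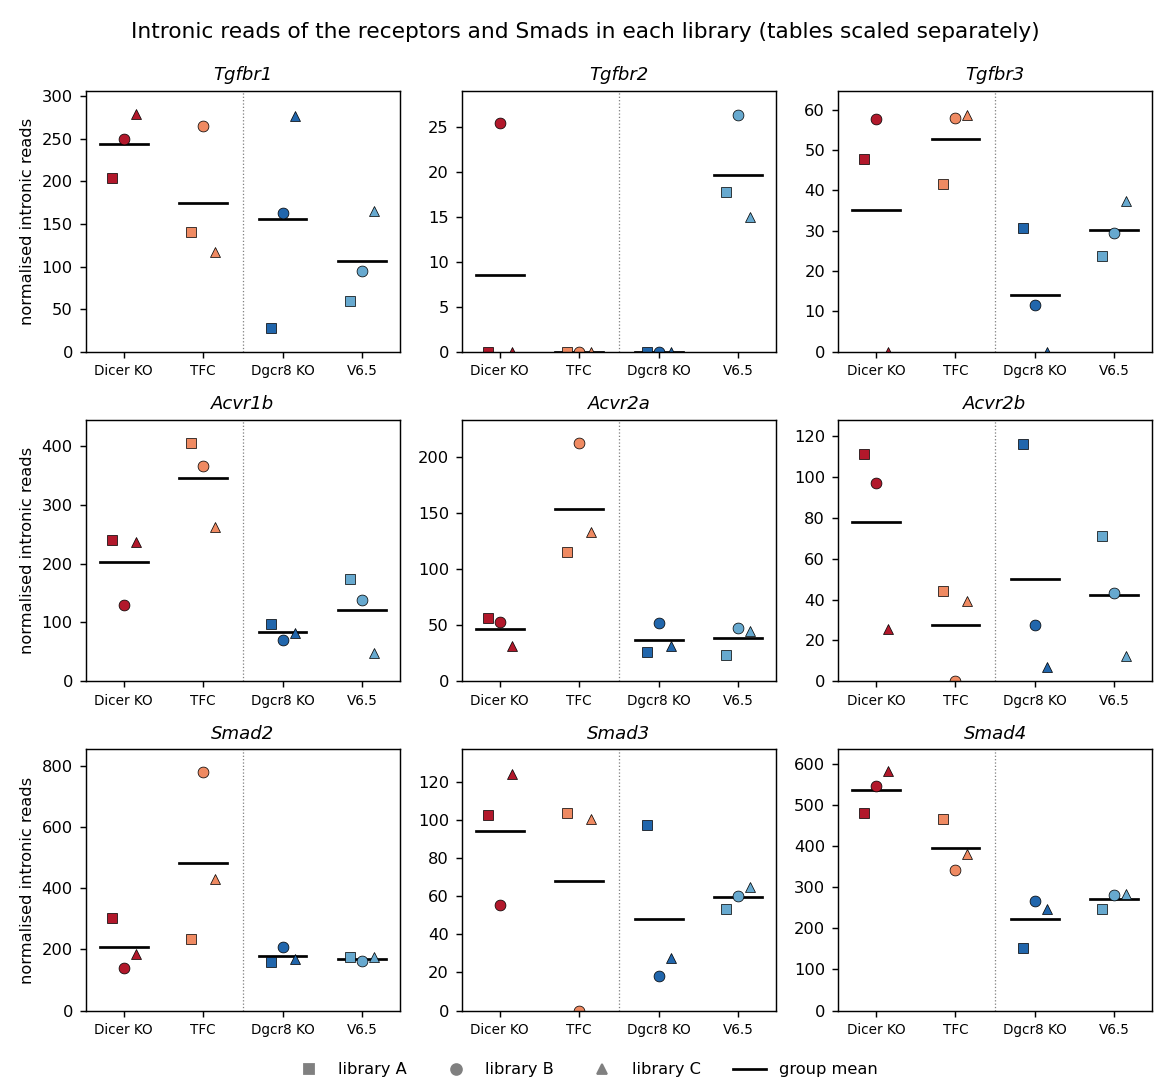
Normalised intronic reads of each of the 9 genes in every library (square A, circle B, triangle C), with a bar for the group mean; the Dicer and Dgcr8 tables were scaled separately. Acvr1b and Acvr2a are lower and Smad4 higher in every Dicer knockout library than in every TFC library, and Tgfbr2 is at 0 in all 3 Dgcr8 knockout libraries.

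A difference between exonic and intronic change was tested within libraries, as a change in spliced RNA beyond that in unspliced RNA would appear. Which intronic library belongs to which exonic one was inferred from the correlation of their deviations. That Pearson r was low, from 0.093 (Dicer knockout B) to 0.43 (Dgcr8 knockout A), so the SE and p-values rest on an uncertain match. By limma, 0 of 10967 genes in the Dicer pair and 0 of 10328 in the Dgcr8 pair were called (0.0% in each), with 390 and 591 genes under 0.05 before adjustment, and 0 of the 8 tested here. In the Dicer pair the exonic change of Acvr2a exceeded the intronic one by 1.52 on the log2 scale (SE 0.46, 95% interval 0.40 to 2.65), and that of Smad2 by 1.52 (SE 0.59, 95% interval 0.07 to 2.98). Both had a limma adjusted p of 0.925, and they were the 2 of the 8 under 0.05 before adjustment. For Tgfbr1 the difference was 0.22 (SE 0.48, 95% interval -0.95 to 1.39), its exonic and intronic fold changes being 0.78 and 0.56. For Smad4 it was -0.78 (SE 0.39, 95% interval -1.75 to 0.19). In the Dgcr8 pair the differences ran from -0.07 (Acvr2a) to 1.24 (Tgfbr3), with limma adjusted p of at least 0.944, and that of Tgfbr3, with a library at 0 in introns, was -0.10 without it.

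The 3 genes with an AGCACTT match, Tgfbr1, Tgfbr2 and Smad2, had exonic fold changes of 0.78, 3.27 and 0.41 in the Dicer pair and 0.29, -0.27 and 0.40 in the Dgcr8 pair, on the log2 scale. The 3.27 of Tgfbr2 rests on TFC B at 0, and was 1.13 without that library and 2.12 with 10 added in place of 1. Over all tested genes with this match, the median was 0.17 in the Dicer pair (2351 genes, beside -0.01 for all) and 0.08 in the Dgcr8 pair (2317 genes, beside -0.08). For genes with GCACTTT the medians were 0.19 and 0.12, and for genes with the let-7 match CTACCTC 0.03 and -0.05. Of the 6 genes without it, Acvr2a, Acvr2b, Smad3 and Smad4, which held none of the 3 motifs, had -0.16, -0.15, 0.53 and -0.34 in the Dicer pair and -0.12, 0.10, -0.16 and -0.33 in the Dgcr8 pair. Tgfbr3 and Acvr1b, with a let-7 match, had 0.73 and 0.24, and -0.78 and -0.04. Apart from that of Tgfbr1 in the Dicer pair, the intervals of these fold changes include 0.

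Of the other genes of the pathway, 59 in 6 lists, 0 of 48 tested were called in Dicer exons, where 1.25% of all genes were, and 3 of 50 (6.0%) in Dgcr8 exons, where 1.34% were. Of 9 ligands tested, 0 were called in Dicer exons. In Dgcr8 exons 1 rose and 1 fell: Gdf3, a Nodal-like ligand, from 1618 to 4836 normalised reads (log2 fold change 1.58, SE 0.25, limma adjusted p = 0.0368, range over the alternatives 0.000461 to 0.217), and Tgfb2, a ligand that needs Tgfbr3 for high-affinity binding, from 1305 to 74.61 (-3.82, SE 0.70, limma adjusted p = 0.0499, range 0.000493 to 0.269). Of 16 intracellular regulators and cofactors, 0 were called in Dicer exons and 1 in Dgcr8 exons, where Dab2, an adaptor and also a primitive endoderm marker, fell from 620.0 to 21.48 (-4.86, SE 0.74, limma adjusted p = 0.0337, range 0.00145 to 0.222). All 3 calls were lost when Dgcr8 knockout B or C or V6.5 B or C was left out, fits that called 0 of all genes, and by limma-voom. The markers of other cell types that were lower in the same knockout are given above, and their part in these calls was not tested. Dab2 is itself the 1 primitive endoderm marker called lower there, so that call is the same one. The lists of extracellular inhibitors and activators (11 and 12 tested), co-receptors (3 and 3), other receptors of the superfamily (5 and 6) and other Smads (4 and 4) had 0 calls in either knockout. Their medians were 0.69, 1.25, 0.98 and 0.56 in Dicer exons, beside -0.01 for all genes, and 0.02, 0.49, -0.38 and 0.16 in Dgcr8 exons, beside -0.08. The ligands had medians of 0.29 and -0.13, and the regulators 0.18 and 0.00. With a term for library set, 8 of these genes were called in Dicer exons and 12 in Dgcr8 exons, fits that called 12.2% and 17.0% of all genes.

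Acvr1c, a type I receptor for Nodal that could stand in for Acvr1b, was listed at 0 in both groups of the Dgcr8 table and in the Dicer knockout, with a mean of 6.71 in TFC from 1 library. Bmpr2, the type II receptor of the Bmp branch, averaged 3085 normalised reads in the Dicer knockout against 1584 in TFC without overlap (log2 fold change 0.98, SE 0.24, limma adjusted p = 0.0977, range 0.00575 to 0.456), and 1884 against 2464 in the Dgcr8 pair (limma adjusted p = 0.804). Acvr1, a type I receptor for Bmp ligands, averaged 292.4 against 232.5 and 208.0 against 264.9 (limma adjusted p = 0.802 and 0.812). Lefty1, a secreted Nodal inhibitor and a Smad2 target, averaged 4215 against 1629 in the Dicer pair and 3692 against 1278 in the Dgcr8 pair, with overlap in both. Its limma adjusted p was 0.49 and 0.439, and 0.00295 and 0.0206 with a term for library set, the lowest of its alternatives, which reached 0.805 and 0.773. That term uses library letters set from these same exonic values. Smad7, an inhibitory Smad and target, averaged 1343 against 902.4 and 1015 against 1020 (limma adjusted p = 0.658 and 0.874). Skil, a Smad repressor and target, averaged 6920 against 6032 and 7453 against 5785 (limma adjusted p = 0.759 and 0.744). Tdgf1, the Nodal co-receptor Cripto, had exonic means of 30307 against 36206 and 26073 against 12858, with no test because 3 of the 4 exonic columns did not give 1 solution for it. In introns it was solved and tested. The Dicer pair averaged 1687 against 1799 normalised intronic reads (log2 fold change -0.10, SE 0.27, limma adjusted p = 0.924). The Dgcr8 knockout had 1096, 1261 and 1234 against 633.8, 487.4 and 528.9, with no overlap (1.13, SE 0.28, limma adjusted p = 0.0646, range 0.00927 with a term for library set to 0.297, and 0.0475 by limma-voom).

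How the 9 genes moved with each other is described over 12 exonic libraries, each gene centred within its table, so that differences between genotypes and between libraries both enter. Tgfbr1 and Smad2 had the highest Pearson r of the 36 pairs, 0.93, followed by Tgfbr2 and Tgfbr3 at 0.82 and Tgfbr1 and Acvr2a at 0.72. Smad2 and Smad4 had the lowest, -0.71, followed by Acvr1b and Smad2 at -0.65. Library A, apart in every group, is part of these values. Tgfbr2 and Tgfbr3 were both at 0 in TFC B, so that library is also part of their r with each other and with other genes. The r values without TFC B were not computed. Among 12301 genes the nearest to Tgfbr1 were Dnajc3 and Mef2a (both 0.972), and to Smad2 Ipo11 (0.984) and Foxj3 (0.973). The nearest to Tgfbr2 were Bola3 (0.985) and Rnf103 (0.978), and to Tgfbr3 Prkd1 (0.963) and Prickle1 (0.934). For Acvr2a they were Chm (0.979) and March7 (0.969), and for Acvr2b Fbrs (0.916) and Igsf9b (0.914). The nearest to Smad3 and Smad4 were Ndel1 (0.884) and Snx1 (0.873) for Smad3, and Slc9a5 (0.925) and 3110062M04Rik (0.921) for Smad4.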

How the data were processed

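For each knockout and its wild type, the authors deposited an exonic and an intronic table. The deposited signal is reads that the authors normalised by a size factor per library. Per the file headers each column is 1 genotype, and its values are means of 3 libraries. The submitters' processing notes name TopHat2 2.0.12, DESeq and build mm10, and how reads were counted is not stated in any source used here. The planned tests needed values per library. Each mean is a whole-number combination of 3 steps, and solving these gave the reads per library: 99.34 to 100.0% of 18412 genes had 1 solution in each column, and the 70, 121, 121 and 8 exonic genes of high level without one (Dicer knockout, TFC, Dgcr8 knockout, V6.5) were left out. In introns at most 1 per column was. Of the recovered read numbers, 60.2 to 80.4% were even, so they are not independent single reads, and no counting interval is given. Libraries B and C were ordered by size factor, and intronic libraries were matched to exonic ones by their deviations. No 2 libraries agreed within sampling noise (lowest chi-square per gene 21.2 in exons and 14.2 in introns).

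Tests used limma 3.58.1 in R 4.3.3 (two-sided, variance trend) on log2(value + 1) for genes with a mean of at least 10, with Benjamini-Hochberg adjustment over all genes tested and 4 residual degrees of freedom, within 1 table. The Dgcr8 minus Dicer effect was fitted over both exon tables as a difference of within-table changes. The added 1 understates changes of low genes, and a library at 0 can widen them. A gene is called at an adjusted p under 0.05. The fits were tested on simulated data. Scaling, pseudocount, filter, trend, limma-voom, a term for library set (A against B and C) and leaving out each library were the alternatives. The fit of libraries B and C alone was added after seeing the data. The letters were set from the exonic values, so the term and that fit are not independent of them. The 9 genes and all lists (ligands, extracellular inhibitors and activators, co-receptors, other receptors of the superfamily, other Smads, intracellular regulators and cofactors, and cell type markers) were chosen with earlier results of these data known. Named besides the 9 are every list gene called in exons, 7 list genes set by name, the 2 targeted genes, and the 2 genes with the highest Pearson r with each of the 9; those of Acvr1b are not reported here.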

Additional observations from a re-analysis of the deposited data

How the results depend on the processing

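No paired analysis was possible because a recovered library cannot be tied to a replicate number. Over 847 values of the 9 genes under the alternatives, 777 kept their direction and side of the threshold, 1 passed it (Tgfbr1 in Dicer exons with a term for library set) and 69 changed sign, none of them a called value. The cause of these changes was not tested. Tgfbr2 and Tgfbr3 had the fewest exonic reads of the 9 genes, 0 to 230 in a library. TFC B held 0 of each at a recovered exonic depth of 15593271 reads. TFC C held 120 and 98 at a depth of 12595455.

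Of the 9 genes, 1 was called in Dicer exons with a term for library set and 0 in every other setting run for the 7 comparisons. Of the other superfamily genes in Dicer exons (0 called), 1 was called without the variance trend, 8 with a term for library set, and 0 to 1 leaving out 1 library each (1 without TFC A). In Dgcr8 exons (3 called), 1 was called without the trend, 12 with the term, 0 by limma-voom, 10 with libraries B and C alone, and 0 to 6 leaving out 1 library each (0 without Dgcr8 knockout B, 6 without V6.5 A). Without V6.5 B, V6.5 C or Dgcr8 knockout C there were also 0. Over all genes, Dicer exons gave 165 calls, and 1604 with the term, 61 with B and C alone, 35 without the trend and 21 by limma-voom. They gave 0 without Dicer knockout B, Dicer knockout C or TFC C, 7 without TFC B, 91 without Dicer knockout A and 483 without TFC A. Dgcr8 exons gave 171 calls, 2165 with the term, 2029 with B and C alone and 49 by limma-voom. They gave 0 without Dgcr8 knockout B or C or V6.5 B or C, 463 without Dgcr8 knockout A and 382 without V6.5 A. Dicer introns gave 41 calls and 0 to 91 over the alternatives, Dgcr8 introns 163 and 26 to 451, and the Dgcr8 minus Dicer effect 21 and 11 to 632.

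The signs that turned, as log2 values, were as follows. With 10 added, Tgfbr3 in Dicer exons was -0.08. By limma-voom, Acvr1b in Dgcr8 exons was 0.18. With B and C alone, Acvr1b was 0.01 and Acvr2a 0.36 in Dgcr8 exons, Tgfbr1 -0.49 and Acvr2a 0.49 in Dgcr8 exon minus intron, and Smad2 0.11 in Dgcr8 minus Dicer effect, where upper quartile scaling gave 0.02. Leaving out 1 library each gave these ranges. In Dicer exons, Tgfbr3 ran from -1.45 to 2.12, Acvr1b from -0.32 to 0.82 and Acvr2b from -0.47 to 0.17. In Dicer introns, Tgfbr3 ran from -2.93 to 0.01 and Smad3 from -0.19 to 3.16. In Dicer exon minus intron, Tgfbr1 ran from -0.04 to 0.58 and Smad3 from -2.91 to 0.80. In Dgcr8 exons, Tgfbr1 ran from -0.14 to 0.76, Tgfbr2 from -1.05 to 0.16, Acvr1b from -0.41 to 0.36, Acvr2a from -0.65 to 0.76 and Smad3 from -0.41 to 0.09. In Dgcr8 introns, Tgfbr1 ran from -0.53 to 1.12, Acvr1b from -0.91 to 0.0, Acvr2a from -0.40 to 0.13, Acvr2b from -1.22 to 0.72 and Smad2 from -0.06 to 0.14. In Dgcr8 exon minus intron, Tgfbr1 ran from -0.38 to 0.52, Tgfbr3 from -0.10 to 2.62, Acvr1b from -0.26 to 0.82, Acvr2a from -0.67 to 0.61, Acvr2b from -0.60 to 1.25 and Smad4 from -0.28 to 0.08. In Dgcr8 minus Dicer effect, Tgfbr3 ran from -2.91 to 0.67, Acvr1b from -0.86 to 0.28, Acvr2a from -0.49 to 0.92, Acvr2b from -0.06 to 0.57, Smad2 from -0.25 to 0.27 and Smad4 from -0.10 to 0.12.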
